A study of Rattus norvegicus with 8 samples.

Results

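The miR-130/301 family was examined by small RNA sequencing in the striatum of rats that had self-administered methamphetamine (METH) or saline. Its members were taken by name as the rows rno-miR-130a-3p, rno-miR-130a-5p, rno-miR-130b-3p, rno-miR-130b-5p, rno-miR-301a-3p, rno-miR-301a-5p and rno-miR-301b-3p, and the prefix for rat is left out from here on. All 7 were found among the 752 mature miRNAs listed. There were 4 rats in the saline group and 4 in the METH group, all labelled wild type, and each rat gave 1 library. They were male Sprague-Dawley rats that pressed a lever for intravenous infusions of METH dissolved in saline, or of saline alone, after food training and jugular catheter surgery in both groups. Their age was not given in the sources used here, and rats were sampled only if their lever pressing was stable in the last sessions. The family was selected on a value of this comparison, the log2 fold change of miR-301a-5p, which had passed the threshold when METH rat 1 was left out. All differences between METH and saline in its members are therefore a description and carry no test.

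A miRNA is cut from a hairpin precursor, which can release a mature strand from its 5′ side (5p arm) and from its 3′ side (3p arm). Usually 1 arm is retained by Argonaute proteins as the guide strand and the other is largely degraded. The guide finds target mRNAs mainly through its seed, which is bases 2 to 8. The miR-130/301 family is known for 3p guides with a common seed, and has been described in endothelial cells, in the vascular wall and in cell growth.

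Mature sequences were matched in RefSeq for 6 of the 7 members, the other being miR-301a-3p. The 3p arms are shown because their seed, in capitals, defines the family.
miR-130a-3p: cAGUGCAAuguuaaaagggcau
miR-130b-3p: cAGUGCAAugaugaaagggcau
miR-301b-3p: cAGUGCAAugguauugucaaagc
The seed AGUGCAA was held by 3 of the 693 mature rat miRNAs in the table, and these were the 3 shown. miR-301a-3p had no mature sequence there, so its seed was not checked. Their first 10 bases were identical. From there, miR-130b-3p differed from miR-130a-3p at 2 of 22 positions, U11A and A13G, counted from the 5′ end with the base of miR-130a-3p given before the position. miR-301b-3p differed from miR-130a-3p at 9 of the 22 positions compared. How the counting treated reads that align to several places was not stated, so the split of counts between such close relatives is uncertain.

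The 5p arms are shown because the arm comparison turns on them. Capitals again mark bases 2 to 8.
miR-301a-5p: gCUCUGACuuuauugcacuac
miR-130a-5p: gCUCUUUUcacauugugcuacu
miR-130b-5p: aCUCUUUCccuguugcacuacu
None of these carries the 3p seed, and the stretches in capitals differ among the 3. The seed of miR-301a-5p was found in 2 of the 693 mature sequences, the other being miR-301b-5p, which is listed in the count table but was not a member. From base 13, miR-301a-5p and miR-130b-5p both hold UUGCACU, the reverse complement of the 3p seed, which was found in 8 of the 693 mature sequences when each was read 5′ to 3′.

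The precursors lie at 3 loci. In RefSeq on the rat assembly GRCr8, Mir130a is at chr3:90229228-90229315 on the minus strand, Mir301a is at chr10:72422599-72422698 on the plus strand, and Mir301b and Mir130b are neighbours on the plus strand at chr11:97384033-97384110 and chr11:97384380-97384461. A gap of 269 bases separates the last 2. Mir301a lies within the spans of the protein-coding genes Ska2 and Prr11, and the chr11 pair within that of 2610318N02Rikl. The reads had been aligned to another assembly, rn6, whose coordinates were not analysed here. Mir130a overlaps Mir3590, which is annotated on the opposite strand. The antisense miR-3590-5p had 0 counts in each of the 8 libraries, and miR-3590-3p had at most 1.

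Total counts ranged from 12929302 in METH rat 1 to 27632443 in saline rat 3. METH rat 4 stood apart from the other libraries on the first principal component, at -21.5 against -2.83 to 7.29. Levels are given as CPM, the share of a library's counts times 1000000 after the libraries had been put on a common scale by the TMM method of edgeR, and 1 CPM stood for 14.6 to 27.4 counts. The neuronal markers miR-124-3p, miR-9a-5p, miR-9a-3p and miR-128-3p summed to 256772 to 462238 CPM in the 8 libraries, and the 4 hindbrain and spinal cord markers to 7.35 to 66.8 CPM. Endothelial and vessel wall markers summed to 10534 to 11197 CPM in saline rats and 10994 to 13865 CPM in METH rats. The 3 erythrocyte markers listed summed to 2817 CPM in METH rat 4, against 342 to 648 CPM in the other 7 libraries, and the part of erythrocyte RNA in the values below was not tested. In bulk tissue, fewer cells of a type and less RNA per cell cannot be told apart.

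Nearly all counts of the family came from 2 strands, both 3p. miR-130a-3p, at 98.3 ± 47.2 CPM (SD, n = 8), and miR-301a-3p, at 76.8 ± 27.2 CPM (SD, n = 8), ranked 190 and 206 by mean level among the 507 miRNAs that passed the low-count filter. The remaining members lay near or below 1 CPM. They were miR-301a-5p at 1.33 ± 0.85 CPM, miR-130b-5p at 0.960 ± 0.325 CPM, miR-301b-3p at 0.741 ± 0.414 CPM, miR-130a-5p at 0.455 ± 0.222 CPM and miR-130b-3p at 0.256 ± 0.155 CPM (SD, n = 8 each). These means are over both groups, and the order of the first 3 of these 5 differed within each group. In saline rats it ran from miR-301a-5p at 1.92 CPM to miR-301b-3p at 0.932 and miR-130b-5p at 0.916 CPM, and in METH rats from miR-130b-5p at 1.00 CPM to miR-301a-5p at 0.736 and miR-301b-3p at 0.550 CPM. miR-130a-5p and miR-130b-3p did not pass the filter. Mature strands are of like length, but adapters join different strands with unequal efficiency, so a ratio of counts between strands need not be a ratio of molecules.

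The 5 members that passed were compared in all 10 pairs by the ratio of their counts within each library. The adjustment covered the 10 pairs, but because the family was chosen on miR-301a-5p, nothing is read from the tests of its 4 pairs and their ratios are given as a description. Of the 6 pairs of the other members, 4 had a ratio that differed from 1 (two-sided exact sign-flip permutation test over 8 libraries, p = 0.00781, the smallest the test allows, adjusted p = 0.0130). Each of these set miR-130a-3p or miR-301a-3p above miR-130b-5p or miR-301b-3p in 8 of 8 libraries, with mean log2 ratios between 6.25 and 7.05. For miR-130a-3p over miR-301a-3p, which come next to each other in the order of levels, no difference beyond the spread was found, with a mean log2 ratio of 0.33 ± 0.52 (SD, n = 8), a range from -0.25 to 1.35 and miR-130a-3p higher in 6 of 8 libraries (exact sign-flip test, p = 0.0938, adjusted p = 0.134). For miR-130b-5p over miR-301b-3p it was 0.47 ± 0.76 (SD, n = 8; exact sign-flip test, adjusted p = 0.166), made up of 0.04 ± 0.54 in saline rats, where miR-130b-5p was higher in 1 of 4, and 0.90 ± 0.76 in METH rats, where it was higher in 3 of 4 (SD, n = 4 each). The log2 ratio of miR-130a-3p to miR-301a-5p was 5.45 ± 0.36 in saline rats and 7.42 ± 0.47 in METH rats, and that of miR-301a-3p to miR-301a-5p was 5.23 ± 0.42 and 6.98 ± 1.13 (SD, n = 4 each). The log2 ratio of miR-301a-5p to miR-130b-5p was 1.09 ± 0.88 in saline rats and -0.80 ± 0.91 in METH rats (SD, n = 4 each). That to miR-301b-3p was 1.14 ± 1.09 and 0.10 ± 1.15 (SD, n = 4 each). No mean over both groups is given for the 4 pairs with miR-301a-5p, since their ratios had different means in the groups.

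**Figure D1:**
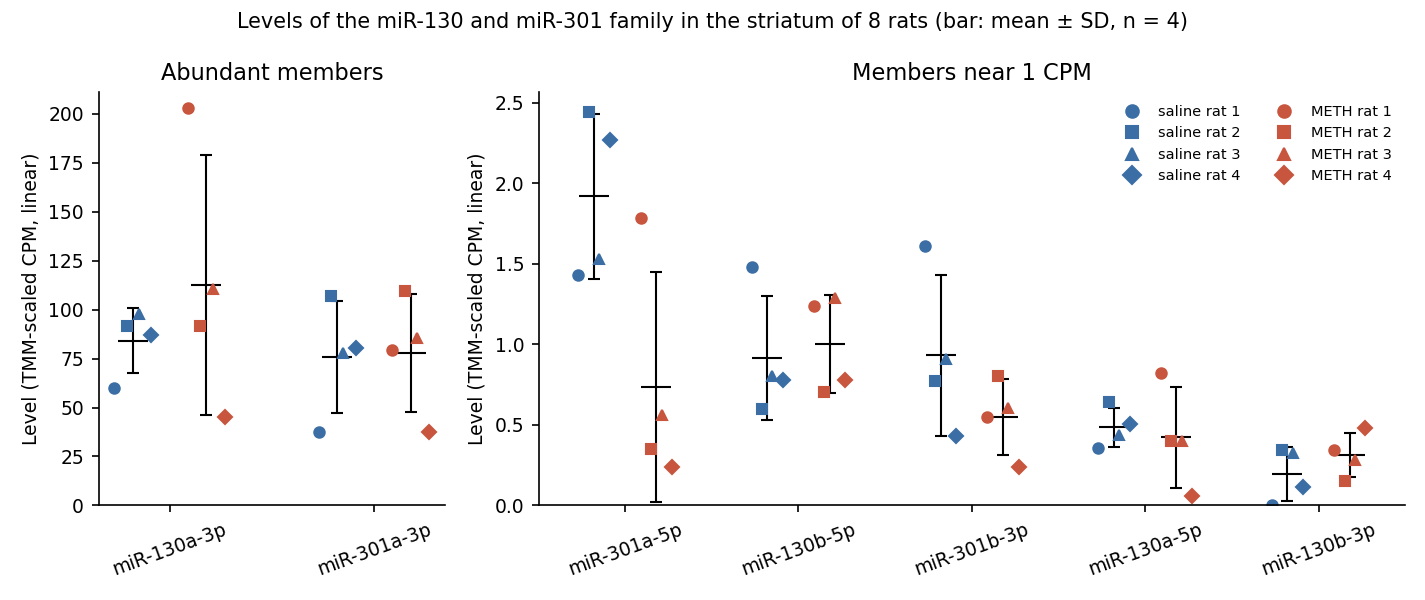
Levels of the 7 members in TMM-scaled CPM on linear axes, with 1 point per rat, saline in blue and METH in red, and black bars for the mean ± SD of 4 rats. miR-130a-3p and miR-301a-3p (left) lie between 37.3 and 203 CPM, the other 5 members (right) at or below 2.45 CPM, and 3 of the 4 METH rats lie below every saline rat for miR-301a-5p.

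Against this background, METH was compared with saline across all 507 miRNAs. With the quasi-likelihood test of edgeR, 0 miRNAs (0%) had an adjusted p under 0.05 and 28 had an unadjusted p under 0.05, while DESeq2 called 8 and the edgeR exact test called 6, with 0 members of this family among them. Of the 5 tested members, 3 had log2 fold changes above 0 and 2 below, with a median of 0.04, against a median of -0.02 over all 507 miRNAs. The CPM of METH and saline rats overlapped for each of the 5. Over all 507, the groups did not overlap for 1.38% with METH lower and for 1.78% with METH higher.

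miR-301a-3p, the major strand of its precursor, had overlapping levels in the groups. Saline rats 1 to 4 were at 37.5, 107, 77.8 and 80.6 CPM. METH rats 1 to 4 were at 79.4, 109, 85.3 and 37.3 CPM. The lowest rats, saline rat 1 and METH rat 4, were nearly equal, as were the highest, saline rat 2 and METH rat 2. The log2 fold change was 0.04 ± 0.39 (SE), and its sign varied with the library left out, from -0.20 without METH rat 2 to 0.29 without METH rat 4.

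miR-130a-3p was more variable in the METH group. Saline rats 1 to 4 were at 60.1, 91.4, 97.8 and 86.9 CPM. METH rats 1 to 4 were at 203, 91.7, 111 and 45.0 CPM. METH rat 1 had the highest level and METH rat 4 the lowest of all 8 rats. The coefficient of variation was 19.8% in the saline group and 58.8% in the METH group, and it was not tested whether these differ. The log2 fold change was 0.42 ± 0.40 (SE), and was -0.03 without METH rat 1 and 0.70 without METH rat 4.

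The 3p strands of the 4 precursors together came to 161 ± 43.2 CPM in saline rats and 191 ± 82.2 CPM in METH rats (SD, n = 4 each). miR-130a-3p made up 53.4 ± 6.2% of their counts in the saline group and 56.9 ± 10.9% in the METH group, and miR-301a-3p made up 45.8 ± 6.7% and 42.6 ± 10.8%. METH rat 1 was highest for miR-130a-3p, at 71.6% (exact 95% binomial interval, 70.2 to 73.0%), while the other 7 rats lay between 45.4 and 60.6%. Thus the balance between these paralogs, which does not depend on scaling between libraries, was displaced towards miR-130a-3p in METH rat 1 and lay within or close to the saline range in the other METH rats. Such intervals cover counting error only, since reads copied by PCR may be counted more than once.

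The paralogs at the chr11 locus were scarce. miR-301b-3p had 36, 18, 25 and 11 counts in saline rats 1 to 4 and 8, 16, 15 and 4 in METH rats 1 to 4. This gave 0.932 ± 0.498 CPM in the saline group and 0.550 ± 0.234 CPM in the METH group (SD, n = 4 each), with METH rat 4 alone below every saline rat. The log2 fold change was -0.73 ± 0.47 (SE). Omitting saline rat 1, the rat with the highest count, gave -0.31, and omitting METH rat 2 gave -1.01, with the values for the other libraries in between. miR-130b-3p had 0, 8, 9 and 3 counts in saline rats and 5, 3, 7 and 8 in METH rats, and did not pass the filter. Without the filter its log2 fold change was 0.60. A count of 0 in saline rat 1 allows up to 3 counts, or 0.134 CPM. Its partner miR-130b-5p had 33, 14, 22 and 20 counts in saline rats and 18, 14, 32 and 13 in METH rats, with overlapping levels and a log2 fold change of 0.14 ± 0.37 (SE). That value fell to -0.04 without METH rat 3 and reached 0.49 without saline rat 1.

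miR-301a-5p, the minor strand of miR-301a, had the member value farthest from 0. Its counts in saline rats 1 to 4 were 32, 57, 42 and 58, or 1.43, 2.45, 1.53 and 2.27 CPM. In METH rats 1 to 4 they were 26, 7, 14 and 4, or 1.79, 0.352, 0.565 and 0.240 CPM. METH rats 2, 3 and 4 were below every saline rat, whereas METH rat 1 lay inside the saline range. The means were 1.92 ± 0.51 CPM and 0.736 ± 0.713 CPM (SD, n = 4 each). The log2 fold change was -1.42 ± 0.55 (SE), a 2.67-fold lower level, which was the fourth lowest of the 507.

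Leaving out METH rat 1, the smallest library, moved this value to -2.27. That was the setting in which 5 of 513 miRNAs (0.975%) were called, miR-301a-5p among them, and it is the value on which the family was chosen. Leaving out METH rat 4 gave -1.14, and leaving out any 1 of the other libraries gave between -1.48 and -1.19. The counts behind these values were small, with exact 95% Poisson intervals of 0.142 to 0.726 CPM in METH rat 2 and 0.0654 to 0.615 CPM in METH rat 4. miR-301a-5p passed the low-count filter through all 4 saline rats and 2 of the METH rats, so that a miRNA with this pattern was retained because of its level in the saline group.

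**Figure D2:**
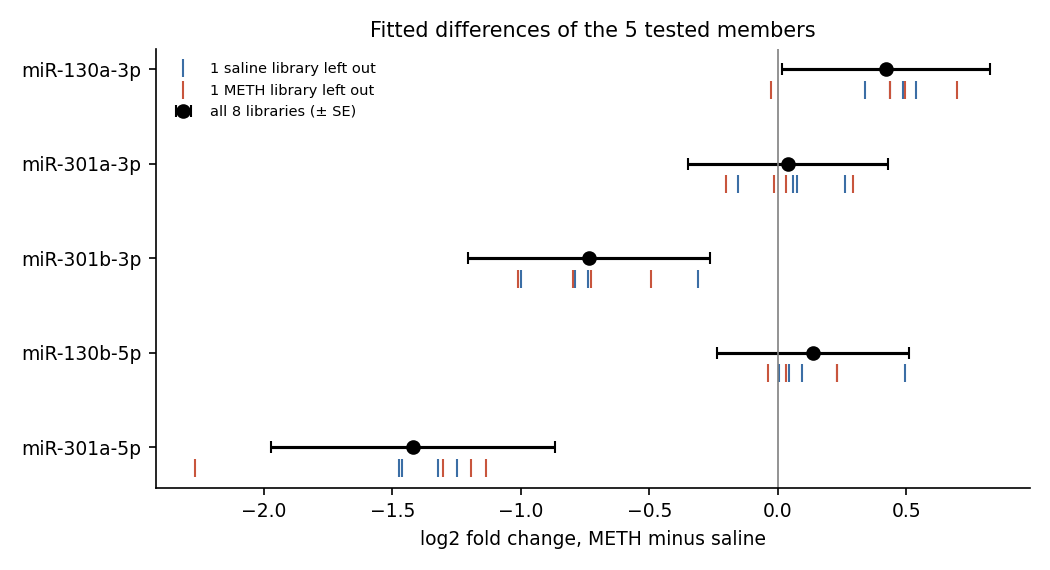
Log2 fold change of METH against saline for the 5 tested members, with black points and bars for the fit on 8 libraries ± SE and ticks for the fits that each left out 1 saline (blue) or METH (red) library. For miR-301a-5p the fits lie between -2.27 and -1.14, and for miR-130a-3p, miR-301a-3p and miR-130b-5p they lie on both sides of 0.

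Both arms of miR-301a come from 1 hairpin, and their ratio within a library needs no scaling between libraries. In saline rats 1 to 4 the 5p arm made up 3.69, 2.24, 1.93 and 2.74% of the counts of both arms. In METH rats 1 to 4 it made up 2.20, 0.321, 0.658 and 0.640%. METH rat 1 again lay within the saline range, and the other METH rats were below every saline rat. Exact 95% binomial intervals went up to 0.661% in METH rat 2, 1.10% in METH rat 3 and 1.63% in METH rat 4, where the 5p arm had 4 counts. These intervals cover counting error and not the spread between rats. In counts, there were 26.1 to 50.8 reads of the 3p arm for each of the 5p arm in saline rats, 44.5 in METH rat 1, and 151 to 310 in the other METH rats.

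The mean log2 ratio of 5p to 3p counts, with 0.5 added to each, was -5.23 ± 0.42 in saline rats and -6.98 ± 1.13 in METH rats (SD, n = 4 each). The difference was -1.75 ± 0.60 (SE). It was -2.26 without METH rat 1, -1.71 without METH rat 4, and -1.35 without METH rat 2. The count of miR-301a-5p enters this ratio, so the difference restates the pattern of that strand and is not a separate observation.

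The same ratio was formed for all 174 precursors with both arms tested. The median difference between METH and saline was -0.0042, and 87 of the 174 were below 0. Of these, 5% lay below -0.86 and 5% above 0.84. The difference of miR-301a was the lowest of the 174, and the highest was 1.74. The groups did not overlap for 0.575% of precursors with the ratio lower in METH and for 1.72% with it higher, and miR-301a was in neither set because of METH rat 1. The precursor was singled out with the value of its 5p arm known, so this rank is a description.

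**Figure D3:**
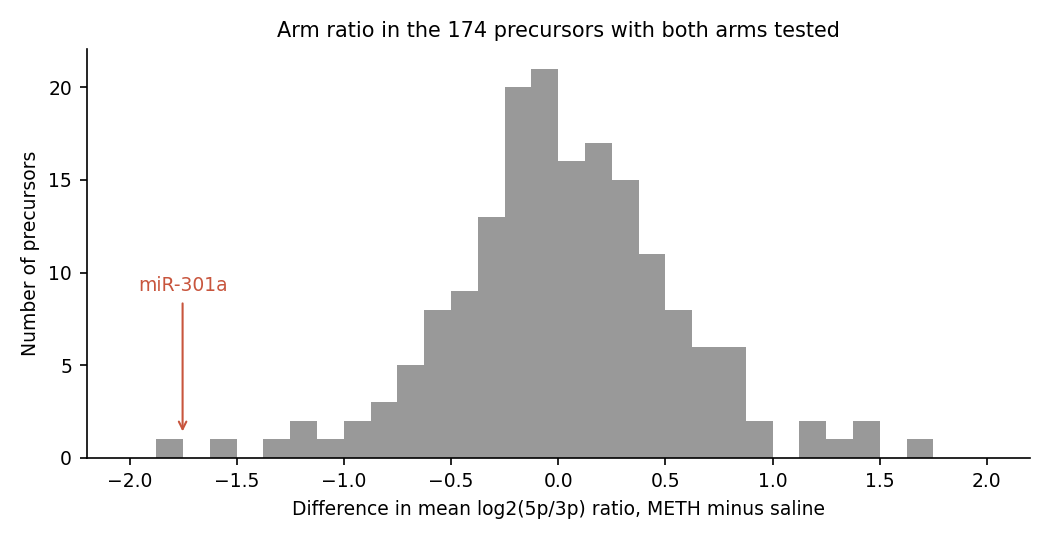
Histogram of the difference between METH and saline in the mean log2 ratio of 5p to 3p counts, with the number of precursors on the vertical axis, for the 174 precursors with both arms tested. The arrow marks miR-301a at -1.75, the lowest value.

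In the paralog miR-130a the 3p arm was also dominant, and more so. The 5p arm had 8, 15, 12 and 13 counts in saline rats and 12, 8, 10 and 1 in METH rats. Its share of both arms was 0.580 ± 0.104% in the saline group and 0.335 ± 0.138% in the METH group (SD, n = 4 each). Each METH rat had a lower share than each saline rat, but METH rat 2 at 0.437% and saline rat 3 at 0.445% were nearly equal. With 0.5 added to each count, the log2 ratios of these 2 rats were -7.745 in METH rat 2 and -7.746 in saline rat 3, so that the groups overlapped. The difference in log2 ratio was -0.78 ± 0.31 (SE), or -0.51 without METH rat 4, in which a single read of the 5p arm was counted. Because miR-130a-5p did not pass the filter, this precursor was not among the 174. Without the filter the log2 fold change of miR-130a-5p was -0.22.

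In counts, miR-130b showed the opposite arm preference. Its 5p arm had more counts than the 3p arm in 8 of 8 libraries and made up 166 of the 209 counts of both arms. The share was 80.4 ± 16.3% in the saline group and 76.1 ± 9.7% in the METH group (SD, n = 4 each), and the rats of the groups overlapped. In miR-301a, miR-130a and miR-301b the 3p arm had more counts in 8 of 8 libraries. For miR-301b, 133 counts of the 3p arm stood against 2 of the 5p arm, both of these in saline rat 1. Thus the counts of the neighbours Mir301b and Mir130b came mostly from opposite arms. Their log2 ratios of 5p to 3p shared no sign in any library. miR-130b-3p had 43 counts in all and differs from the abundant miR-130a-3p at 2 of 22 positions. How reads with several alignments were counted was not stated, so the arm preference of miR-130b is uncertain.

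**Figure D4:**
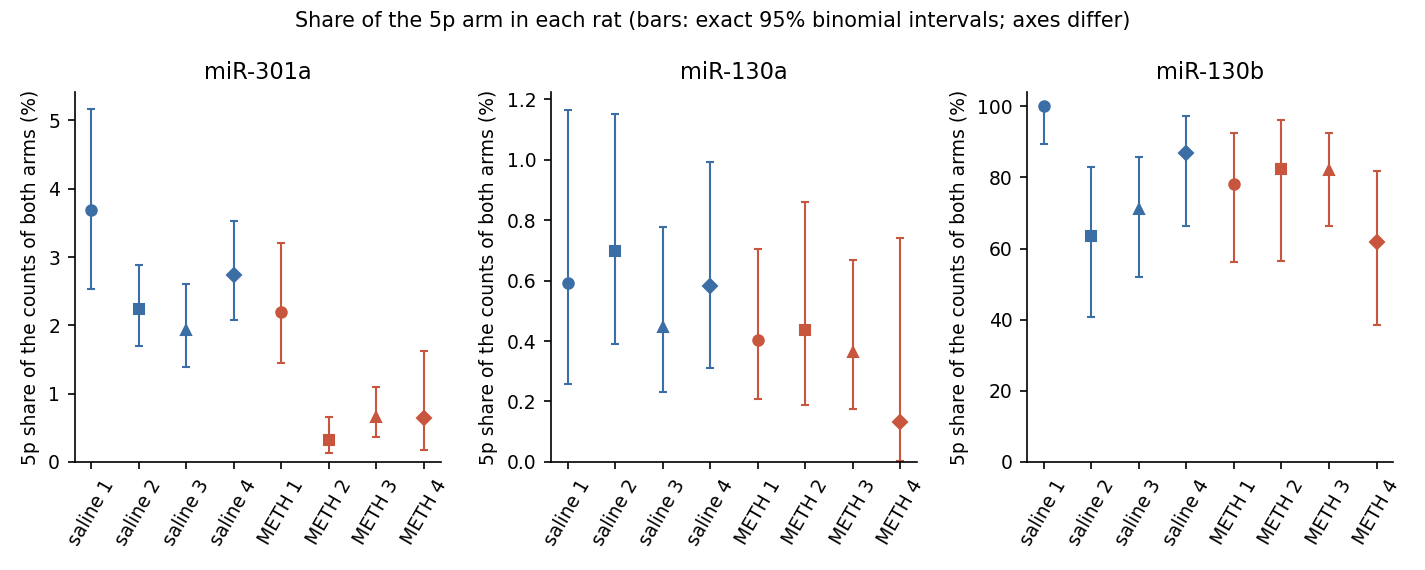
Share of the 5p arm in the counts of both arms, in percent, for miR-301a, miR-130a and miR-130b in each rat, with exact 95% binomial intervals and different vertical axes. METH rats 2 to 4 lie at 0.321 to 0.658% for miR-301a against 1.93 to 3.69% in saline rats, and for miR-130b the 5p arm holds more than 60% in each rat.

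The deviations of each rat from its group mean were compared between members on the log2 CPM scale, as a description over 8 libraries that share their depth and scaling. Pearson's r was 0.89 between miR-130a-3p and miR-301a-5p, 0.66 between miR-130a-3p and miR-301a-3p, and 0.43 between the arms of miR-301a. Between miR-130b-5p and miR-301b-3p, whose genes are neighbours, it was 0.49. The other 6 of the 10 pairs lay lower, from -0.45 between miR-301a-3p and miR-130b-5p to 0.25 between miR-301a-5p and miR-130b-5p. The pair with the highest value thus joined strands of different loci, in which METH rat 1 was the highest METH rat and METH rat 4 the lowest.

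On the same scale, with the difference between the groups removed, the deviations most like those of miR-301a-5p over the other 506 tested miRNAs were those of miR-702-3p (r = 0.96, rho = 0.95), miR-107-3p (r = 0.93, rho = 0.83) and miR-103-1-5p (r = 0.91, rho = 0.86). For miR-130a-3p they were miR-107-3p (r = 0.97, rho = 0.83), miR-702-3p (r = 0.97, rho = 0.81) and miR-129-2-3p (r = 0.96, rho = 0.90). These were picked as the highest of 506 and have no p. They describe how rats varied within groups and not a like difference between METH and saline, since the log2 fold changes of miR-702-3p, miR-107-3p and miR-103-1-5p were -0.25, 0.68 and -0.35, against -1.42 for miR-301a-5p. All 6 pairs leaned on METH rats 1 and 4, without which r was 0.67 to 0.78 for miR-301a-5p and 0.82 to 0.87 for miR-130a-3p over 6 libraries. miR-107-3p, for example, was at 211 CPM in METH rat 1, 38.9 in METH rat 2, 56.0 in METH rat 3 and 13.1 in METH rat 4, against 49.7 ± 9.0 CPM in the saline group (SD, n = 4).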

How the data were processed

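Small RNA of 5 to 40 nucleotides was gel-purified from striatal total RNA of 8 rats. The library kit tags each molecule with a unique identifier. The authors trimmed adapters with Cutadapt 1.18, aligned reads to rn6 with STAR 2.7.0e, and deposited raw counts per mature miRNA made with featureCounts (Subread 1.6.4), 1 column per rat and not pooled. Merging of identifiers, the miRNA annotation and the rule for reads with several alignments were not stated. Unmerged PCR copies would make counts look more precise than they are.

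Groups came from the treatment labels, and rats were numbered 1 to 4 in the order of the labels. From the counts, miRNAs were filtered with filterByExpr (minimum count 10), which kept 507 of 752, and scaled with TMM factors. METH was compared with saline in edgeR (version 4.0.16, R version 4.3.3) by glmQLFit and glmQLFTest, the quasi-likelihood test, without covariates, and the Benjamini-Hochberg adjustment covered all 507. SE is the absolute log2 fold change over the square root of F. Log2 CPM used a prior count of 2. Ratios between strands used raw counts plus 0.5. DESeq2 1.42.0, the edgeR exact test, other scalings and filters, the rat number as a block and each library left out were tried. The test was checked on simulated data. The text names all 7 members, 3 miRNAs most like miR-301a-5p and 3 most like the most abundant member, and an offset-seed list. Other miRNAs with the 3p seed were to be named too, but the 693 mature sequences held 0 besides members. Markers of oligodendrocytes, microglia and leukocytes were also listed. Members, lists and tests were chosen with earlier results of these data known. Each library is 1 rat, and p-values measure the spread between these rats.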

Additional observations from a re-analysis of the deposited data

How the results depend on the processing

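The count of called miRNAs was 0 with 2 other scalings, with 2 other filters and with the replicate block, 8 with DESeq2 and 6 with the edgeR exact test, which test the same counts with other variance models. With 1 library left out it ranged from 0 to 5, and the calls came without METH rat 1. No member was called in another setting, but with at least 10 counts in every library miR-301a-5p and miR-301b-3p were not tested. Of the 6 pairs of members without miR-301a-5p, the same 4 differed in level with 2 added to each count and with any 1 library left out, and directions were the same in the saline rats alone, where 4 libraries cannot give a p under 0.125. The arm difference of miR-301a was -1.58 with 2 added to each count, and from -2.26 to -1.35 with 1 library left out. That of miR-130b was 0.12 without saline rat 1, against -1.01. With library totals, miR-301a-3p was at -0.04, where the median over all miRNAs was -0.12. At this depth miR-130b-3p had at most 9 counts and miR-130a-5p at most 15 in a library, and neither passed the filter over all libraries. miR-130a-5p passed it in some fits with 1 library left out, with log2 fold changes from -0.30 to 0.12. With the replicate block, 0 miRNAs were called and miR-301a-5p was at -1.69. Rats of 1 number share only their place in the labels (correlations of deviations -0.36 to -0.15).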

Other observations

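The miR-148/152 family has a seed that is offset by 1 base from that of the miR-130/301 family, CAGUGCA against AGUGCAA, and was held by 3 of the 693 mature sequences. The sequences are shown with bases 2 to 8 in capitals.
miR-148a-3p: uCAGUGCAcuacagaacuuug
miR-148b-3p: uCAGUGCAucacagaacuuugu
miR-152-3p: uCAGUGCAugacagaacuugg
All 3 were tested and 0 were called. miR-148a-3p was at 77.5 ± 10.3 CPM in the saline group and 62.2 ± 9.6 CPM in the METH group (SD, n = 4 each), and 3 of the 4 METH rats were below every saline rat. The levels of miR-148b-3p were 49.0 ± 4.9 and 42.8 ± 15.7 CPM. For miR-152-3p they were 18.1 ± 1.2 and 13.9 ± 9.4 CPM, with 32 counts (2.20 CPM) in METH rat 1, the rat that was highest for miR-130a-3p. The log2 fold changes were -0.32, -0.20 and -0.38. The last 2 depended strongly on 1 library each. Without METH rat 4, miR-148b-3p averaged 50.1 CPM in the METH group, above the saline mean, and without METH rat 1, miR-152-3p averaged 17.7 CPM. Markers of oligodendrocytes summed to 2897 to 3191 CPM in saline rats and 2334 to 4492 CPM in METH rats, and those of microglia and leukocytes to 1076 to 2094 and 688 to 2063 CPM. Their part in these values was not tested.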
